A study of Danio rerio with 85 samples.

Results

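This section describes 47 zebrafish genes of mitosis and the G2 phase in *rnf2* mutant and wildtype embryos and hearts. They were taken from a list of 51 symbols, and a gene was kept when its symbol stood in the tables of the hearts and its Ensembl identifier in those of the whole embryos. All tables together list 30055 genes. The symbols *bub1*, *bub1bb*, *ccnb2* and *incenp* did not meet this rule. The 1 dpf (days post fertilization) heart table holds 43 of the 47 genes, since *spc24*, *cenpf*, *kif4* and *prc1b* are not listed in it.

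The *rnf2* gene encodes the enzymatic subunit of Polycomb repressive complex 1, and the mutants carry a deletion with a premature stop codon in both copies. Whole embryos were sequenced at 3 dpf as 7 pools of *rnf2* mutants (rnf2-/-), picked by phenotype from crosses of heterozygous parents and labelled as TU/TLF mixed background, and as 8 pools of wildtype embryos labelled as strain TLF. In this comparison genotype and strain label cannot be told apart. Single hearts came from *rnf2* mutant (rnf2-/-) and wildtype (rnf2+/+) embryos of heterozygous crosses in the TU/TLF mixed background, all carrying the myl7:GFP transgene, which marks cardiomyocytes, and each embryo was genotyped on its own. There were 8, 9 and 9 mutant hearts and 9, 13 and 10 wildtype hearts at 1, 2 and 3 dpf. A dissected heart holds all of its cell types together, and each pool holds whole animals, so that fewer cycling cells and less RNA per cell cannot be told apart in any of these libraries.

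A cell that has copied its DNA passes through the G2 phase and enters mitosis once Cdk1, bound to its cyclin, becomes active. Condensin then compacts the chromosomes, a spindle of microtubules and motor proteins moves them, the kinetochores attach them to the spindle, and the spindle checkpoint holds the cell until all are attached. The anaphase-promoting complex ends mitosis by marking cyclins for destruction, and a contractile ring divides the cell. The transcripts of these proteins are made mainly in G2 and mitosis, so that their level in a tissue is commonly read as a mark of cycling cells, and in the zebrafish heart both myocardial and endocardial cells still divide at these ages. The roles given below are those known from human cells and other vertebrates.

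The depth was 6251467 to 11036762 reads in mutant and 4711185 to 12585927 reads in wildtype embryo pools. Hearts were counted in UMIs (unique molecular identifiers, barcodes meant to count each captured transcript once). Their depth was 2453 to 83738 UMIs in mutant and 4009 to 51621 UMIs in wildtype hearts at 1 dpf. At 2 dpf it was 46943 to 109942 in mutant and 23523 to 81685 in wildtype hearts. At 3 dpf it was 49841 to 93653 in mutant and 27309 to 82308 in wildtype hearts. At 2 and 3 dpf the mutant hearts were thus the more deeply sequenced, with a median of 64280 UMIs in mutant and 39780 UMIs in wildtype hearts at 3 dpf. *rnf2* itself had 138 ± 14.5 normalised counts in mutant and 587 ± 65.6 in wildtype embryos (SD, n = 7 and 8). In hearts of 1, 2 and 3 dpf the log2 fold change of *rnf2* was -0.75, -1.56 and -1.32. The limma adjusted p was 0.971, 0.000271 and 0.0155, so that *rnf2* was called lower, at an adjusted p under 0.01, at 2 dpf only. Every heart of 2 and 3 dpf held at least 1 gene at the limit of 256 UMIs that the barcode allows, which none of the mitosis and G2 genes reached, *hmga1a* coming nearest with up to 173 UMIs in a heart. Below the limit, too, transcripts of a gene that share a barcode count as 1. The counts, shares and fold changes of *hmga1a* may thus be compressed, more so where it has many UMIs. The size of this was not tested. The share of very abundant genes therefore falls as depth rises, and the summed cardiomyocyte markers serve here only as a check of the tissue. They made up at least 183 of 10000 UMIs in every mutant and 230.3 in every wildtype heart at 3 dpf. In embryo pools they made up at most 101 of 10000 reads in mutants and 97.4 in wildtypes. At 2 dpf the lowest mutant and wildtype hearts both had 165, and at 1 dpf the lowest wildtype heart had 240. Mutant heart 3 of 1 dpf had 101, no more than the highest embryo pool, and mutant heart 2 of 1 dpf had 159.

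In whole embryos nearly all of the mitosis and G2 genes had lower levels in *rnf2* mutants. Together they took 17.2 ± 1.57 of 10000 reads in mutant pools and 30.2 ± 2.61 in wildtype pools (SD, n = 7 and 8). The highest mutant pool lay below the lowest wildtype pool, also for the mean log2(normalised count + 1) of the 47 genes, which was 7.35 to 7.64 in mutant and 8.29 to 8.52 in wildtype pools. Tested against no change with limma at a Benjamini-Hochberg adjusted p under 0.01, 45 of the 47 genes fell and 0 rose, while of all 22685 genes tested 18% were called lower and 16.6% higher. The median log2 fold change was -0.91 over the 47 genes and 0.03 over all genes. In 38 of the 47 genes every mutant pool lay below every wildtype pool, against 9.55% of all genes, and 6.98% of all genes had every mutant pool above.

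**Figure D1:**
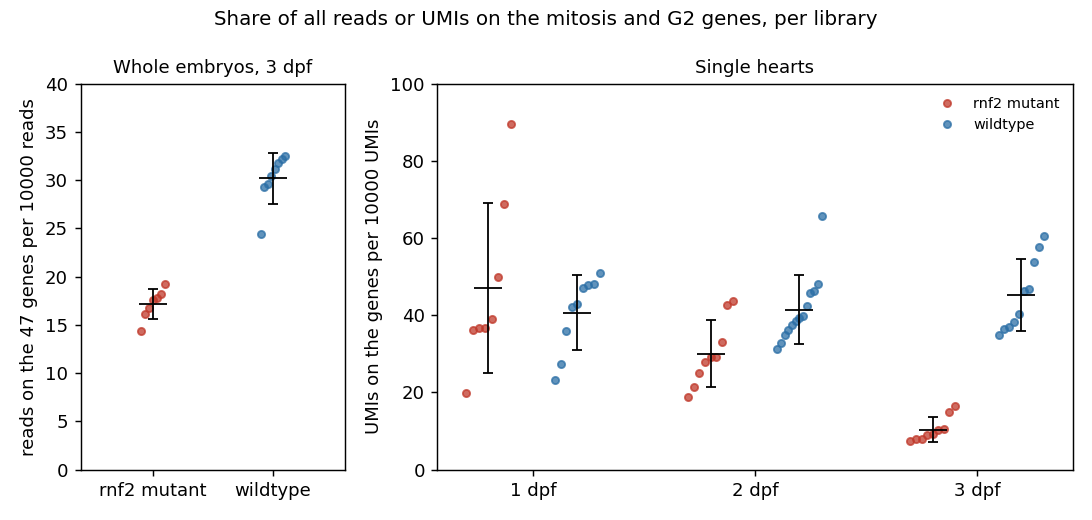
Reads or UMIs on the mitosis and G2 genes per 10000 of the library, by genotype (mutant red and on the left, wildtype blue), in whole embryos at 3 dpf (left panel) and in single hearts at 1, 2 and 3 dpf (right panel). Each point is a library and bars are mean ± SD; the embryo pools do not overlap, and in hearts the genotypes overlap at 1 and 2 dpf and lie apart at 3 dpf, with 7.34 to 16.5 in mutant and 34.98 to 60.6 in wildtype hearts.

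The changes in embryos were moderate in size. The 45 called genes had a median of 52.6% of their wildtype mean in mutants, with log2 fold changes between -1.41 and -0.55. When the fold change was tested against a threshold of 1 on the log2 scale (limma treat, adjusted p of at most 0.1), only *ccnb1* was called lower, while 0.908% of all genes were called lower and 1.01% higher. Leaving out mutant replicate 1 added *ccna2* to this call, and edgeR on recovered reads added *plk1*.

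Among the cyclins and the kinases, 11 of 11 genes fell in mutant embryos, with a median log2 fold change of -1.02. *ccnb1*, which encodes the cyclin B that drives entry into mitosis, ranged from 187 to 255 normalised counts in mutant pools (median 215) and from 528 to 633 in wildtype pools (median 570). Its log2 fold change was -1.41 ± 0.07 (SE, adjusted p = 4.65e-12), the lowest of the 47 genes. *ccna2*, the cyclin A of S phase and G2, ranged from 156 to 282 in mutant pools (median 206) and from 442 to 562 in wildtype pools (median 456), a log2 fold change of -1.22. The genotypes did not overlap for either cyclin, nor for *ccnb3*, a further B-type cyclin, which had 103 ± 13.6 normalised counts in mutant and 211 ± 15.9 in wildtype pools. *plk1*, the polo-like kinase of centrosome maturation and spindle assembly, ranged from 219 to 275 in mutant pools (median 238) and from 515 to 593 in wildtype pools (median 548). Its log2 fold change was -1.16 ± 0.06 (SE, adjusted p = 1.99e-11). *cdk1*, the kinase that these cyclins activate, had a log2 fold change of -0.89, and *aurkb*, the kinase of the chromosomal passenger complex, one of -1.01. The 2 genes of small Cdk-binding subunits moved by different amounts. *cks1b* had 64.8 ± 6.56 normalised counts in mutant and 143 ± 16.1 in wildtype pools, and did not overlap. *cks2* had 27.8 ± 4.44 in mutant and 41.2 ± 7.01 in wildtype pools, overlapped, and had the smallest fall of the called genes, a log2 fold change of -0.55 (adjusted p = 0.00516). The difference between the 2 fold changes was not tested. Without mutant replicate 3, 5 or 8 or wildtype replicate 4 or 12, *cks2* was no longer called and 44 genes were.

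Of the checkpoint and kinetochore genes 7 of 8 fell in mutant embryos, with a median log2 fold change of -0.69. *mad2l1*, which encodes the checkpoint protein Mad2, had 104 ± 14.4 normalised counts in mutant and 216 ± 18.1 in wildtype pools, a log2 fold change of -1.05. The genes of the Ndc80 complex, which holds microtubule ends at the kinetochore, lay close together, with log2 fold changes of -0.68 for *nuf2*, -0.66 for *ndc80*, -0.69 for *spc24* and -0.75 for *spc25*. *cenpf*, a large protein of the outer kinetochore, was the only gene of the 47 with a positive value. It ranged from 196 to 507 normalised counts in mutant pools (median 386) and from 250 to 431 in wildtype pools (median 322), so that the genotypes overlapped, and its log2 fold change of 0.12 did not pass the test (adjusted p = 0.599). Of the chromosomal passenger subunits, *birc5a* (survivin) had a log2 fold change of -0.70 and *cdca8* (borealin) one of -1.03, and both were called.

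All 12 genes of the spindle and its motors were called lower in mutant embryos, at a median log2 fold change of -0.91. *kif11*, the kinesin that pushes the spindle poles apart, ranged from 481 to 559 normalised counts in mutant pools (median 522) and from 919 to 1113 in wildtype pools (median 1024). *aspm*, a spindle pole protein known from microcephaly, ranged from 546 to 739 in mutant pools (median 601) and from 1179 to 1405 in wildtype pools (median 1276). *tpx2*, which activates Aurora A at the spindle, ranged from 268 to 388 in mutant pools (median 302) and from 552 to 738 in wildtype pools (median 647). None of these overlapped between genotypes, and their log2 fold changes were -0.96 for *kif11*, -1.05 for *aspm* and -1.07 for *tpx2*. The paralogs *prc1a* and *prc1b*, which bundle the microtubules of the spindle midzone, were both called. *prc1a* had 121 ± 11.7 normalised counts in mutant and 243 ± 19.3 in wildtype pools, and *prc1b* had 113 ± 16.1 in mutant and 205 ± 26.7 in wildtype pools. *kpna2*, an importin alpha that carries cargo into the nucleus and binds spindle factors, had 610 ± 91.1 normalised counts in mutant and 1102 ± 87.3 in wildtype pools, a log2 fold change of -0.86.

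The 9 genes of chromosome structure were also all called. *mki67*, the gene of the proliferation marker Ki-67, which coats mitotic chromosomes, ranged from 624 to 1000.5 normalised counts in mutant pools (median 934) and from 1535 to 2188 in wildtype pools (median 2032). Its log2 fold change was -1.16 ± 0.10 (SE, adjusted p = 8.43e-09). *cdca5*, whose product sororin keeps sister chromatids together, ranged from 32.6 to 79.9 in mutant pools (median 49.0) and from 105 to 133 in wildtype pools (median 119), and its log2 fold change of -1.25 was the second lowest of the 47. *top2a*, the topoisomerase that untangles replicated DNA, ranged from 971 to 1082 in mutant pools (median 1045) and from 1526 to 1916 in wildtype pools (median 1851). *hmga1a*, a chromatin protein that binds AT-rich DNA and is abundant in embryonic cells, had 3221 ± 714 normalised counts in mutant and 6435 ± 317 in wildtype pools, a log2 fold change of -1.03. The condensin genes had log2 fold changes of -0.91 for *smc2*, -0.68 for *smc4*, -0.80 for *ncapd2*, -0.92 for *ncapg* and -0.92 for *ncaph*. In cytokinesis, *anln* (anillin, a scaffold of the contractile ring) and *racgap1* (a subunit of centralspindlin) were called, with log2 fold changes of -0.97 and -0.76. *ect2*, the exchange factor that activates RhoA at the ring, was not. It had 74.6 ± 19.02 normalised counts in mutant and 98.9 ± 14.5 in wildtype pools (adjusted p = 0.0171), and it passed the test when mutant replicate 2 or wildtype replicate 5 was left out, with 46 genes called in all. Both genes of the anaphase-promoting complex were called, *cdc20*, its activator, with a log2 fold change of -1.07 and *ube2c*, its ubiquitin-conjugating enzyme, with one of -0.93.

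**Figure D2:**
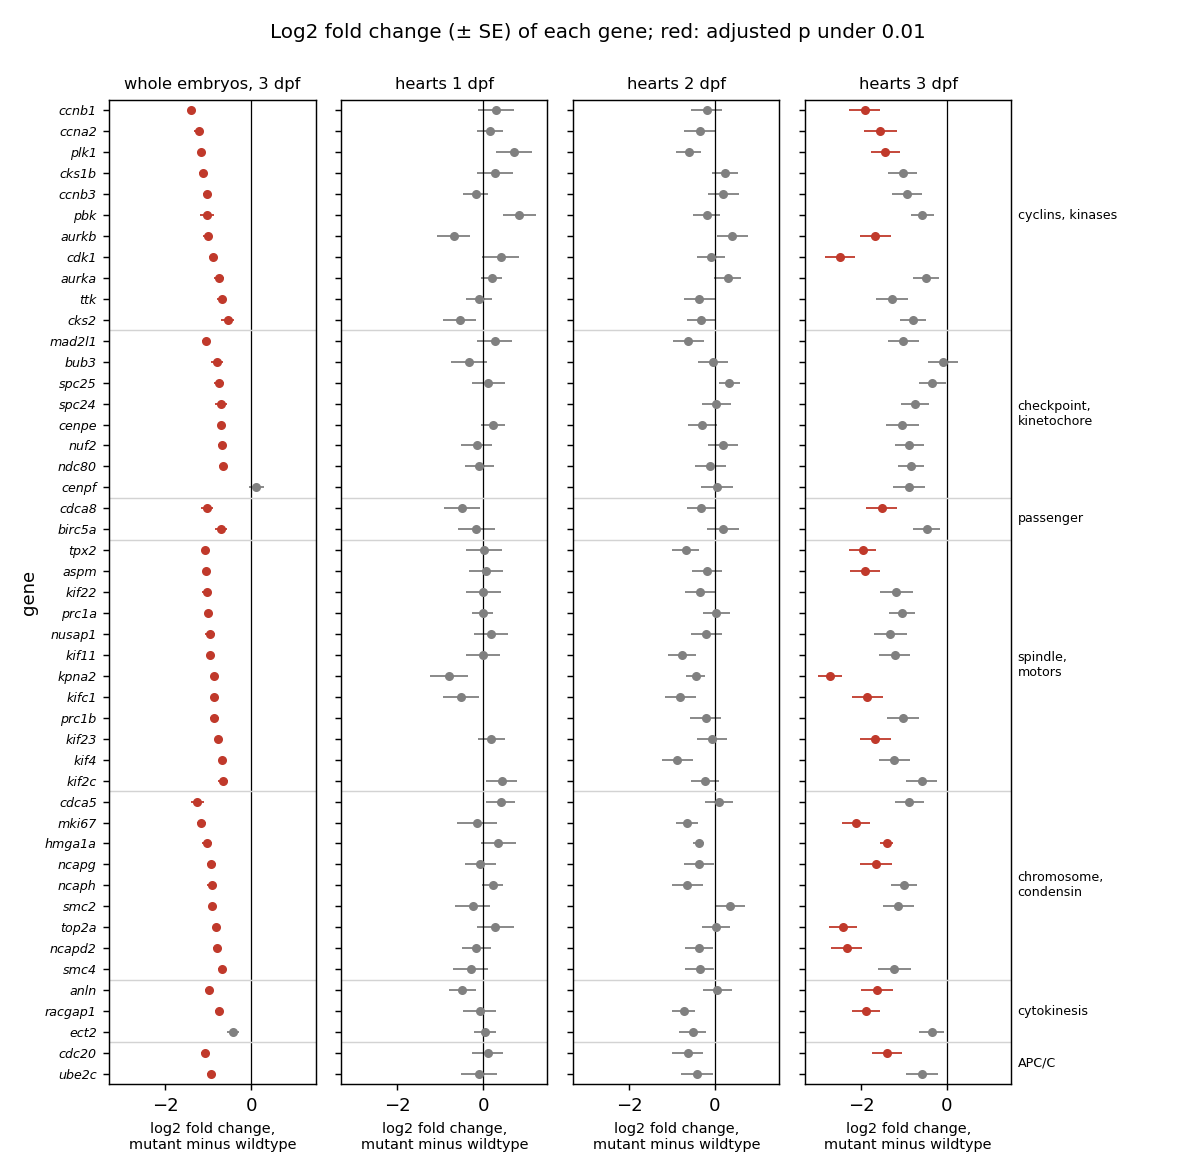
Log2 fold change (mutant minus wildtype, points with SE) of each gene, by role, in whole embryos and in hearts at 1, 2 and 3 dpf; red points passed an adjusted p under 0.01. Red covers 45 of 47 genes in embryos, 0 of 43 and 0 of 47 in hearts at 1 and 2 dpf, and 19 of 47 in hearts at 3 dpf.

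Other genes of the division cycle moved in the same direction in embryos. Of 70 further mitosis genes, 50 were called lower and 0 higher, with a median log2 fold change of -0.62, and of 51 S phase genes 40 were called lower, with a median of -0.63. Within the list of further mitosis genes, the called genes with the lowest fold changes were *h2afx*, *tubb2b* and *cep55l*. *h2afx*, a histone H2A variant, had 425 ± 65.8 normalised counts in mutant and 998 ± 133 in wildtype pools. *tubb2b*, a beta tubulin, had 3681 ± 630.3 in mutant and 7696 ± 632 in wildtype pools. *cep55l*, related to the midbody protein Cep55, had 47.2 ± 9.33 in mutant and 96.4 ± 13.7 in wildtype pools. Marker lists of cell types were compared as well, where 18% of all genes were called lower and 16.6% higher. The summed blood markers made up 14.9 to 23.2 of 10000 reads in mutant and 4.30 to 12.02 in wildtype pools (8 of 11 called higher), and those of macrophages and neutrophils 1.00 to 1.29 in mutant and 0.599 to 0.739 in wildtype pools (6 of 8 called higher). The neural progenitor markers made up 11.8 to 16.2 of 10000 reads in mutant and 7.33 to 11.7 in wildtype pools, with 4 of 10 called higher and 2 lower. Those of the epidermis made up 146 to 204 in mutant and 113 to 131 in wildtype pools (4 of 6 called higher and 1 lower), and those of the hatching gland 0.0915 to 0.422 in mutant and 0.0215 to 0.0681 in wildtype pools (3 of 4 called higher). Cardiomyocyte markers had 8 of 12 genes called lower, with a median log2 fold change of -0.76, although their sum was 56.6 to 101 of 10000 reads in mutant and 52.4 to 97.4 in wildtype pools. Yolk and liver markers had 4 of 7 genes called lower, and their sum was 118 to 175 in mutant and 137 to 195 in wildtype pools. The endocardium markers made up 2.54 to 3.20 in mutant and 1.94 to 2.59 in wildtype pools, with 3 of 11 called higher and 1 lower. Those of skeletal muscle made up 208 to 223 in mutant and 183 to 218 in wildtype pools (1 of 7 called higher). With so few markers called, and beside the shares of all genes, these 2 lists are not read as shifts. Of the epicardium markers 2 of 4 were called higher. Their sum was 0.801 to 1.15 in mutant and 0.618 to 0.799 in wildtype pools, which lie narrowly apart, in a list of only 4 genes. The part of the marker changes in the levels of the mitosis genes was not tested.

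In hearts at 1 dpf no gene passed the test. The genes took 47.05 ± 22.1 of 10000 UMIs in mutant and 40.7 ± 9.76 in wildtype hearts (SD, n = 8 and 9). The medians lay the other way, at 37.8 in mutant and 42.8 in wildtype hearts. Mutant hearts 2 and 3, those with the lowest cardiomyocyte markers, had 68.9 and 89.5, and the next highest mutant heart had 49.8. Mutant heart 2 alone held 577 of the 884 UMIs of these genes in mutant hearts. By limma, edgeR and DESeq2 alike 0 of 43 genes were called, while limma called 0.0872% of all 6877 genes lower and 0% higher. At an unadjusted p under 0.05, limma gave 1 gene, edgeR 1 and DESeq2 0. Of all genes, limma gave 2.01% as higher and 2.3% as lower, edgeR 1.66% and 1.98%, and DESeq2 0.611% and 0.509%. The limma gene was *pbk*, a kinase active in mitotic cells, with a log2 fold change of 0.85 (adjusted p = 0.971). The median log2 fold change was 0.0047 over the 43 genes and -0.0073 over all genes, and 21 of the 43 values were below 0. Only *hmga1a* was above 0 in every heart. It ranged from 8.74 to 26.4 normalised counts in mutant hearts (median 17.1) and from 8.22 to 17.2 in wildtype hearts (median 12.8), which overlap. A single UMI was worth 0.149 to 4.24 normalised counts in mutant hearts (median 1.17) and 0.244 to 3.11 in wildtype hearts (median 1.54), and which size of change could be detected at this depth was not tested. Blood markers made up 3.61 to 138 of 10000 UMIs in mutant and 42.4 to 202 in wildtype hearts at this age, with 3 of 9 called lower, and their part was not tested.

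At 2 dpf most of the values lay below those of the wildtype, and none passed the test. The genes took 30.1 ± 8.59 of 10000 UMIs in mutant and 41.4 ± 8.92 in wildtype hearts (SD, n = 9 and 13), and the hearts of the 2 genotypes overlapped. By limma, edgeR and DESeq2 0 of 47 genes were called, against 0.254% of all genes called lower and 0.381% higher by limma. At an unadjusted p under 0.05, 9 genes were lower and 0 higher by limma, 8 were lower by edgeR and 12 by DESeq2. Of all genes, limma gave 2.28% as lower and 7.26% as higher, edgeR 2.76% and 7.93%, and DESeq2 3% and 3.14%. The median log2 fold change was -0.23 over the 47 genes and 0.10 over all genes, and 33 of the 47 values were below 0. In 0 of the 47 genes the genotypes lay apart, against 0% of all genes with every mutant heart lower and 0.0363% with every mutant heart higher.

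The genes with the lowest values at 2 dpf were *kif4*, a chromokinesin, with a log2 fold change of -0.88, *kifc1*, a minus-end directed kinesin that focuses spindle poles, with -0.81, and *kif11* with -0.76. *racgap1* ranged from 1.02 to 7.38 normalised counts in mutant hearts (median 3.82) and from 3.15 to 9.97 in wildtype hearts (median 6.88). *mki67* ranged from 1.91 to 12.9 in mutant hearts (median 8.69) and from 6.22 to 21.3 in wildtype hearts (median 10.4). *hmga1a*, the gene with the most UMIs of the 47, ranged from 45.8 to 78.7 in mutant hearts (median 58.1) and from 56.0 to 117 in wildtype hearts (median 77.2). All 3 overlapped between genotypes. The log2 fold changes were -0.73 for *racgap1* (adjusted p = 0.271), -0.65 for *mki67* (adjusted p = 0.27) and -0.38 for *hmga1a* (adjusted p = 0.171). With the number of detected genes as a covariate *hmga1a* passed the test, at a log2 fold change of -0.60. Above 0 lay *aurkb*, at 0.41, and *smc2*, at 0.35. At this age the hatching gland markers made up 5.96 to 39.5 of 10000 UMIs in mutant and 2.88 to 19.1 in wildtype hearts, with 4 of 4 called higher. In addition 3 of 6 yolk and liver markers were called higher in mutant hearts and 2 of 12 cardiomyocyte markers lower, against 0.381% of all genes higher and 0.254% lower. The part of these shifts was not tested.

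At 3 dpf the mitosis and G2 genes were far lower in *rnf2* mutant hearts. They took 10.4 ± 3.21 of 10000 UMIs in mutant and 45.2 ± 9.40 in wildtype hearts (SD, n = 9 and 10), with 7.34 to 16.5 in mutant and 34.98 to 60.6 in wildtype hearts, which do not overlap. This amounted to 615 of 610126 UMIs in all mutant hearts and to 2108 of 452745 UMIs in all wildtype hearts. The number of the 47 genes detected in a heart was 12 to 29 in mutants (median 20) and 30 to 47 in wildtypes (median 36.5), although the mutant hearts had the larger median depth. Of the 47 genes 19 were called lower and 0 higher, against 2.4% of all 11221 genes called lower and 2.96% higher. All 47 log2 fold changes were below 0, with a median of -1.22, against 0.08 over all genes. The deposited values keep genes found in at least 25% of the hearts of an age. The called *kifc1* and the uncalled *ncaph* are among them through wildtype hearts alone. The mutant median was 0 for 32 of the 47 genes and the wildtype median for 0, so that more wildtype than mutant hearts hold those 32. For these 32 genes the mutant hearts alone would not reach 25% of the hearts, while the wildtype hearts alone would. The called *cdk1* and *ccnb1* are among them, so that their place in the table also rests on the wildtype hearts. In 7 of the 47 genes every mutant heart lay below every wildtype heart, against 0.508% of all genes, and 0.633% of all genes had every mutant heart above. These 19 genes were called whichever heart was left out, with 19 to 24 genes called in all. edgeR called 30 and DESeq2 25 of the 47, for which no called share of all genes is given. At an unadjusted p under 0.05, edgeR gave 42 of the 47 genes as lower, beside 9.91% of all genes lower and 12.5% higher. DESeq2 likewise gave 42, beside 9.05% of all genes lower and 7.85% higher.

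**Figure D3:**
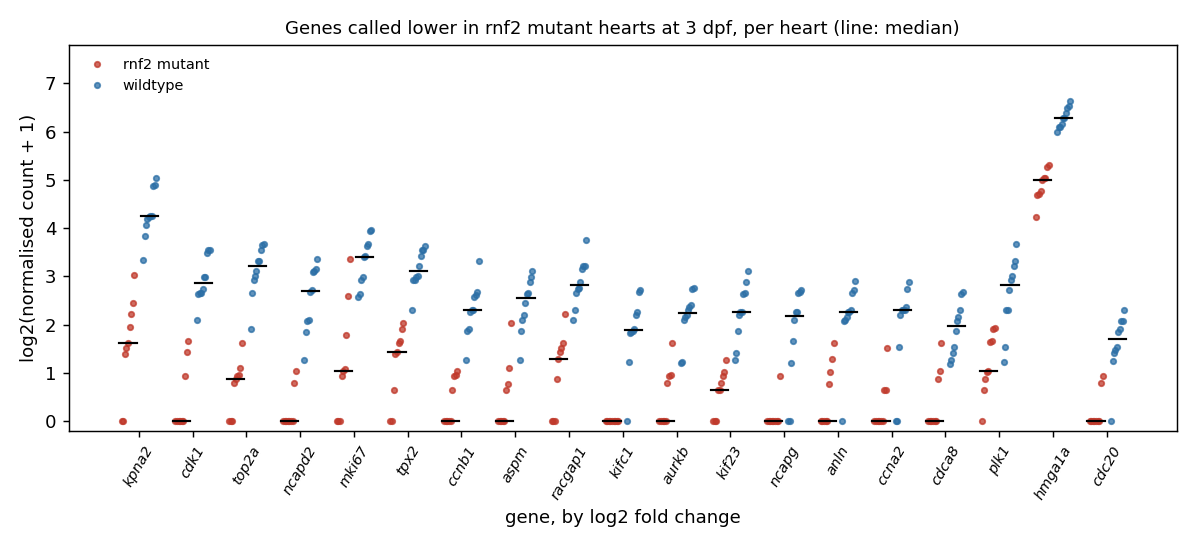
Values of the 19 genes called lower at 3 dpf, as log2(normalised count + 1), in 9 mutant hearts (red, left of each pair) and 10 wildtype hearts (blue, right), with a line at the median. Most mutant hearts sit at 0 for many of the genes, whereas *hmga1a* is detected in every heart at 17.7 to 38.7 normalised counts in mutants and 62.4 to 98.9 in wildtypes.

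Of the cyclins and kinases, 5 of 11 were called at 3 dpf, with a median log2 fold change of -1.28 over the 11. *cdk1* ranged from 0 to 2.15 normalised counts in mutant hearts (median 0) and from 3.29 to 10.7 in wildtype hearts (median 6.30). It was at 0 in 6 of 9 mutant hearts and in 0 of 10 wildtype hearts, and its log2 fold change was -2.48 ± 0.34 (SE, adjusted p = 6.24e-09). *ccnb1* ranged from 0 to 1.05 in mutant hearts (median 0) and from 1.39 to 8.91 in wildtype hearts (median 3.94). The hearts of the genotypes did not overlap for either gene. *cdk1* rests on 7 UMIs in mutant and 64 in wildtype hearts, and *ccnb1* on 4 UMIs in mutant and 36 in wildtype hearts. *plk1* ranged from 0 to 2.80 in mutant hearts (median 1.05) and from 1.32 to 11.8 in wildtype hearts (median 6.06), which overlap. Its log2 fold change was -1.43, that of *ccna2* -1.55 and that of *aurkb* -1.67. *cks1b*, *cks2* and *ccnb3*, which were lower in embryos, had log2 fold changes of -1.03, -0.78 and -0.93 in hearts and did not pass the test.

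The spindle gene *kpna2* had the lowest fold change of all 47 genes in hearts. It ranged from 0 to 7.17 normalised counts in mutant hearts (median 2.07) and from 9.14 to 31.8 in wildtype hearts (median 17.9), with no overlap. Its log2 fold change was -2.72 ± 0.29 (SE, adjusted p = 1.03e-13), from 33 UMIs in mutant and 178 in wildtype hearts. *tpx2* ranged from 0 to 3.11 in mutant hearts (median 1.71) and from 3.92 to 11.4 in wildtype hearts (median 7.61), which do not overlap either, a log2 fold change of -1.96. *kifc1* was at 0 in all 9 mutant hearts and ranged from 0 to 5.55 in wildtype hearts (median 2.70). With 0 UMIs in mutant and 26 in wildtype hearts it was at least 11.7-fold lower, with a floor of 3 UMIs over all mutant hearts that covers counting error only. Since the deposited table keeps genes found in at least 25% of the hearts of an age, *kifc1* is in it through the wildtype hearts alone. *aspm* and *kif23*, the motor of centralspindlin, were the other called genes of the spindle, at -1.91 and -1.66, so that 5 of 12 spindle genes were called, with a median of -1.27.

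Genes of chromosome structure included 5 called of 9, with a median of -1.40. *top2a* ranged from 0 to 2.09 normalised counts in mutant hearts (median 0.817) and from 2.77 to 11.7 in wildtype hearts (median 8.25), a log2 fold change of -2.41 ± 0.33 (SE, adjusted p = 4.23e-09). *ncapd2*, a regulatory subunit of condensin, ranged from 0 to 1.05 in mutant hearts (median 0) and from 1.39 to 9.22 in wildtype hearts (median 5.44), a log2 fold change of -2.33. Neither of them overlapped between genotypes. *mki67* ranged from 0 to 9.32 in mutant hearts (median 1.05) and from 4.93 to 14.5 in wildtype hearts (median 9.63). Here 2 mutant hearts reached into the wildtype range, and the log2 fold change was -2.11. *hmga1a* ranged from 17.7 to 38.7 in mutant hearts (median 30.7) and from 62.4 to 98.9 in wildtype hearts (median 76.8), with no overlap. Its log2 fold change was -1.40 ± 0.15 (SE, adjusted p = 1.26e-13). With 335 UMIs in mutant and 697 in wildtype hearts it made up 54.5% of the UMIs of the 47 genes in mutants and 33.1% in wildtypes. Without it, the other genes took 4.77 ± 2.32 of 10000 UMIs in mutant and 30.3 ± 7.59 in wildtype hearts. *ncapg*, another condensin subunit, was called at a log2 fold change of -1.65, with 1 UMI in mutant and 28 in wildtype hearts. *ncaph*, a further condensin subunit, was likewise at 0 in all mutant hearts and is in the table through the wildtype hearts alone, where it had 18 UMIs and was at 0 in 5 of 10. It was not called, at a log2 fold change of -0.99 (adjusted p = 0.0203).

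Of the remaining roles, *racgap1* and *anln* of cytokinesis were called at -1.88 and -1.62, *cdca8* of the passenger complex at -1.52 and *cdc20* of the anaphase-promoting complex at -1.40. None of the 8 checkpoint and kinetochore genes was called by limma, although all 8 values were below 0, with a median of -0.85. They rest on few UMIs. Mutant and wildtype hearts had 1 and 10 for *ndc80*, 3 and 18 for *nuf2*, 4 and 17 for *mad2l1* and 3 and 11 for *spc24*. They had 6 and 23 for *cenpe*, 6 and 16 for *cenpf* and 5 and 8 for *spc25*. *bub3*, a checkpoint protein that binds kinetochores, lay nearest to 0. It ranged from 0 to 2.45 normalised counts in mutant hearts (median 0.703) and from 0 to 2.14 in wildtype hearts (median 1.29), with 10 UMIs in the hearts of either genotype, and its log2 fold change was -0.09 (adjusted p = 0.918).

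Which genes were called followed their level. The called genes had wildtype means between 2.24 and 78.3 normalised counts (median 4.67), and those not called between 0.813 and 3.55 (median 1.66). Across the 47 genes the log2 fold change and the wildtype mean, which come from the same hearts, had a Spearman correlation of -0.92 and a Pearson correlation of -0.72. A UMI was worth 0.557 to 1.05 normalised counts in mutant and 0.636 to 1.90 in wildtype hearts, and a log2 fold change of values with 1 added understates the change of genes with so few UMIs. The median over the 47 genes was -2.43 with edgeR and -2.62 with DESeq2, which model the UMIs. When every heart was thinned to 27309 UMIs, the median number of called genes over 20 draws was 12 (8 to 15). The genes that then missed the threshold were *ccna2*, *plk1*, *cdca8*, *kifc1*, *ncapg*, *anln* and *cdc20*. The fold changes of the 47 genes in embryos and in hearts at 3 dpf had a Pearson correlation of 0.33 and a Spearman correlation of 0.39 across genes. The 2 sets share no library but differ in their depth per gene. Their wildtype means had a Spearman correlation of 0.78, and in embryos the fold change and the wildtype mean had one of -0.28. The part of the level of a gene in the correlation of the fold changes was not tested.

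Among further genes of the cycle, 5 of 56 other mitosis genes in the 3 dpf heart table were called lower and 0 higher, with a median log2 fold change of -0.56. Those with the lowest fold changes were *tacc3*, which stabilizes spindle microtubules, with 0.497 ± 0.808 normalised counts in mutant and 4.62 ± 1.99 in wildtype hearts, *lmnb1*, a lamin of the nuclear envelope, with 1.31 ± 0.889 in mutant and 7.27 ± 3.08 in wildtype hearts, and *stmn1a*, a microtubule-destabilizing stathmin, with 2.31 ± 1.68 in mutant and 9.37 ± 4.26 in wildtype hearts. The S phase genes were lower too, with 21 of 50 called, a median of -1.05, and 8.57 to 14.4 of 10000 UMIs in mutant against 44.8 to 65.6 in wildtype hearts.

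Markers of cell types were compared in the same hearts, where 2.4% of all genes were called lower and 2.96% higher. Of the cardiomyocyte markers 4 of 12 were called lower and 1 higher. Their sum was 183 to 269 of 10000 UMIs in mutant and 230 to 348 in wildtype hearts, which is no measure of their cells, since the most abundant genes are at the UMI limit and the mutant hearts are the deeper ones. Markers of the endocardium made up 27.3 to 36.7 in mutant and 13.5 to 32.2 in wildtype hearts, with 2 of 11 called higher. Blood markers made up 20.8 to 107 of 10000 UMIs in mutant and 15.5 to 76.5 in wildtype hearts, with 1 of 11 called lower, and 1 of 3 epicardium and 1 of 7 skeletal muscle markers were called lower. Macrophage and neutrophil markers made up 0.467 to 8.22 in mutant and 0 to 2.77 in wildtype hearts, with 1 of 6 called higher. A single called marker of a list is not read as a shift, and the part of the marker changes in the mitosis genes was not tested.

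In wildtype hearts the summed share of the genes differed little between the ages, though the shares do not cover the same genes. At 1 dpf 43 genes are set against the UMIs of 6877 genes. At 2 and 3 dpf 47 genes are set against those of 11033 and 11221 genes. The limit of 256 UMIs was reached in 2 of 9 wildtype hearts at 1 dpf, in 13 of 13 at 2 dpf and in 10 of 10 at 3 dpf. Where it is reached the total is too low, which raises the share of genes below it, by an amount that was not tested. The genes took 40.7 ± 9.76, 41.4 ± 8.92 and 45.2 ± 9.40 of 10000 UMIs at 1, 2 and 3 dpf in wildtype hearts. In mutant hearts they took 47.05 ± 22.1, 30.1 ± 8.59 and 10.4 ± 3.21. Mutant hearts 2 and 3 raised the 1 dpf mutant mean, and the 1 dpf median was 37.8 in mutant and 42.8 in wildtype hearts. Since each age has its own deposited scale, ages were compared on recovered UMIs scaled once over both ages, as log2(UMIs per 10000 + 1). Between 3 and 2 dpf in wildtype hearts 0 of 47 genes were called by limma or edgeR. By limma 0.206% of all genes were called lower and 0.363% higher. At an unadjusted p under 0.05, 3 of the 47 genes were higher by limma and 4 by edgeR, and 0 were lower by either. Of all genes, limma gave 5.24% as higher and 4.34% as lower, and edgeR 5.14% and 4.88%. These counts are therefore not read as a rise. The median log2 fold change was 0.05 over the 47 genes and 0.0041 over all genes.

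Between 2 and 1 dpf in wildtype hearts 3 of 43 genes were called higher and 0 lower, against 13.4% of all 6573 genes higher and 1.41% lower. They were *hmga1a*, at a log2 fold change of 1.09, *racgap1*, at 0.85, and *plk1*, at 0.77, while the median over all genes was itself 0.18. *hmga1a* took 10.5 ± 2.45, 15.3 ± 3.53 and 14.97 ± 2.27 of 10000 UMIs at 1, 2 and 3 dpf in wildtype hearts. None of the 3 was called when hearts were scaled by their total UMIs or thinned to equal depth, and edgeR called *hmga1a* higher and *aurkb* and *bub3* lower. The column names of the 1 dpf hearts begin with W for wildtype and mut for mutant hearts, and those of the older hearts with NDCII for both genotypes. Whether the 1 dpf hearts were handled as a separate batch is not given in the sources used here. A batch of that kind could not be told apart from age in this comparison.

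The change of the mutant effect between 2 and 3 dpf was tested directly, as an interaction. The test used log2(UMIs per 10000 + 1), not the normalised counts behind the fold changes of each age above. Most of the 47 genes lie below 1 UMI per 10000, so the added 1 shrinks their differences. On this scale the log2 fold change at 3 dpf lay below that at 2 dpf in 46 of the 47 genes. The median difference was -0.33, against -0.01 over all genes. With edgeR, which models the UMIs, it was -2.02, against -0.07 over all genes. Of the 47 genes 5 were called lower and 0 higher, against 0.843% of all 10196 genes lower and 0.687% higher. *kpna2* took 1.98 ± 0.638 of 10000 UMIs in mutant and 2.83 ± 0.983 in wildtype hearts at 2 dpf, and 0.504 ± 0.432 in mutant and 3.79 ± 1.42 in wildtype hearts at 3 dpf. The difference between the 2 effects was -1.36 (adjusted p = 6.82e-05). *top2a* took 0.714 ± 0.368 in mutant and 0.760 ± 0.395 in wildtype hearts at 2 dpf, and 0.141 ± 0.130 in mutant and 1.55 ± 0.548 in wildtype hearts at 3 dpf, a difference of -1.12. The mutant and wildtype hearts thus overlapped for *top2a* at 2 dpf, and at 3 dpf every mutant heart lay below every wildtype heart. The other genes called were *cdk1*, at -1.01, *hmga1a*, at -0.94, and *aurkb*, at -0.74. *hmga1a* took 11.7 ± 2.27 in mutant and 15.3 ± 3.53 in wildtype hearts at 2 dpf, and 5.61 ± 1.26 in mutant and 14.97 ± 2.27 in wildtype hearts at 3 dpf. Leaving out each of the 41 hearts in turn gave 4 to 6 calls, and *cdk1*, *hmga1a*, *kpna2* and *top2a* were called every time. *aurkb* was lost without mutant 3 dpf heart 38, 41, 42 or 44, wildtype 3 dpf heart 22 or mutant 2 dpf heart 27. With hearts thinned to 23381 UMIs the median number of calls was 2 (0 to 4), and edgeR called 7, these 5 with *ncapd2* and *ncapg*.

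**Figure D4:**
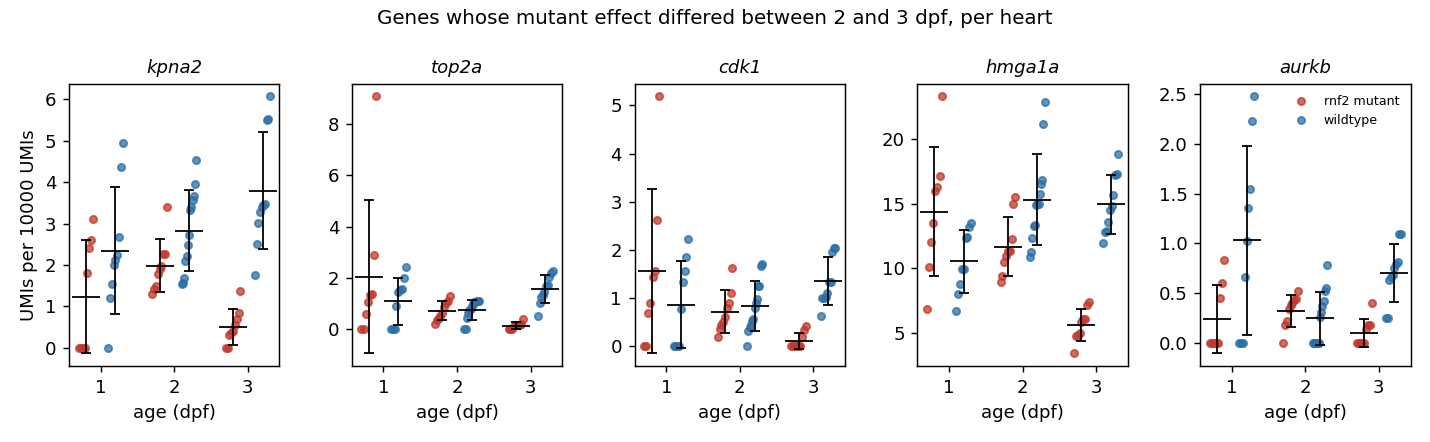
UMIs per 10000 UMIs of the heart at 1, 2 and 3 dpf for the 5 genes whose mutant effect differed between 2 and 3 dpf, in mutant (red, left of each pair) and wildtype hearts (blue, right), with mean ± SD. The genotypes overlap at 2 dpf for each gene, and at 3 dpf the means lie between 0.0986 for *aurkb* and 5.61 for *hmga1a* in mutants and between 0.703 and 14.97 for these genes in wildtypes.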

How the data were processed

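RNA of whole embryo pools and of single hearts was analysed. For embryos the authors mapped reads to GRCz10 with STAR 2.5.2b and counted them per gene. The deposited values are a signal, counts divided by a size factor per library. Before their own test of embryo expression, the authors removed a batch effect from all samples with RUVSeq. The tests here used no such correction, and the sample titles name no batch. For hearts the authors counted UMIs by the CEL-seq pipeline, left out hearts beyond 2 SD of the log amount of mRNA and genes found in under 25% of the hearts of an age, and normalised with Monocle. The deposited heart values are likewise a signal, UMIs divided by a size factor per heart. In the same table, a few deposited columns were entered as a score only because spaces in gene names shift them, and they hold the same quantity. In 73 of 73 libraries every value was a whole multiple of the worth of 1 read or UMI (tolerance 0.001), and whole reads and UMIs were recovered. The barcode allows 256 UMIs per gene and heart, and no correction for transcripts that share a barcode was made here. Peak lists of the ChIP-seq samples were not used here.

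Values were analysed as log2(value + 1) in R 4.3.3 with limma 3.58.1 (trend, Benjamini-Hochberg over all genes), and embryo genes with a mean below 5 were left out. A call is an adjusted p under 0.01, or of at most 0.1 for treat. Ages were compared on recovered UMIs per 10000 with TMM scaling. Alternatives were edgeR 4.0.16, DESeq2 1.42.0, other scaling, pseudocounts and filters, thinning, a covariate, a block of replicate numbers and, chosen after seeing the data, each library left out in turn. The scripts were tested on simulated data. Nothing says that libraries of a group come from separate crosses, so p-values measure the spread between these samples.

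The genes and lists were chosen with earlier results of these data known. Named were the called genes of each comparison, the 6 with the largest fold change in each direction, the 6 with the highest mean, the paralogs, *rnf2* and the 3 called further mitosis genes with the largest change, some of them only in counts and ranges. *ncaph* at 3 dpf was chosen after its values were seen.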

Additional observations from a re-analysis of the deposited data

Results flagged for a closer look

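In 7 of 94 groups of 4 to 10 libraries tested, the lowest or highest library lay far from the rest, and chance gives about 1 in 20. In whole embryos both such values were from wildtype replicate 11. The mitosis and G2 genes took 24.4 of 10000 reads there, while the next lowest wildtype pool had 29.3, and *top2a* had a log2 value of 10.58, with 10.84 next. Without this pool 45 genes were still called lower in mutant embryos.

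In hearts at 3 dpf, *ccna2* had a log2 value of 1.52 in mutant heart 40 (0.65 in the next heart), *cks1b* one of 0.78 in mutant heart 37, *cks2* one of 1.03 in mutant heart 43 and *prc1a* one of 0.65 in mutant heart 44, and for the last 3 genes all other mutant hearts were at 0. Each of these 3 values is 1 UMI, and that of *ccna2* is 2 UMIs. Among hearts at 0 any single UMI stands apart, so that the chance rate above does not hold for these genes. *tpx2* had 2.30 in wildtype heart 19, with 2.92 in the next lowest wildtype heart.

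The mutant effect at 3 dpf differed from that at 2 dpf, by the interaction test, for *kpna2* (-1.36, adjusted p = 6.82e-05), *top2a* (-1.12, adjusted p = 0.000163), *cdk1* (-1.01, adjusted p = 0.00164), *hmga1a* (-0.94, adjusted p = 0.000444) and *aurkb* (-0.74, adjusted p = 0.00559).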

How the results depend on the processing

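No called result changed direction in any alternative run, while some medians near 0 took the other sign. In hearts at 1 dpf this was so with a mean of at least 1 normalised count (-0.09), with the replicate block (-0.02) and with TMM scaling (-0.0057). In wildtype hearts at 2 against 1 dpf it was so when thinned (-0.03). In whole embryos 44 or 45 genes were called lower under every setting except the block of replicate numbers, which uses fewer pools and gave 39. The block gave 1 call against the fold threshold and 0 calls in hearts at 1 dpf. Whether libraries of the same number belong together is not given in the labels. Same-numbered embryo pools correlated at -0.158 to 0.0339 over 4 pairs and hearts of 1 dpf at -0.0767 to 0.0403 over 8 pairs. Each set had 1 best match to its own number, and so few pairs cannot decide the question. edgeR called 2 genes against the fold threshold. At 1 dpf the median log2 fold change was 0.28 with edgeR and 0.25 with DESeq2. At 2 dpf it was -0.54 with DESeq2, and -0.71 with detected genes as a covariate, which called 1 gene. At 3 dpf edgeR called 30 genes (median -2.43), DESeq2 gave a median of -2.62, a pseudocount of 0.5 one of -1.55, and thinning called 12 (median -0.84), without 7 of the 19 genes. With the covariate 19 genes were called (median -1.43), of which 15 were among the 19 called without it, as *plk1*, *aurkb*, *cdca8* and *cdc20* missed the threshold. Of wildtype hearts at 2 against 1 dpf, scaling by totals and thinning each called 0. For the interaction, thinning called 2 (median -0.53), and the median was -2.02 with edgeR and -0.54 with a pseudocount of 0.5. With each library left out, the calls were 44 to 46 in embryos (median -0.93 to -0.87), 1 to 2 against the fold threshold, 19 to 24 in hearts at 3 dpf (median -1.28 to -1.05) and 4 to 6 for the interaction (median -0.37 to -0.29). Depth limits the hearts of 1 dpf, which held as few as 2453 UMIs. Causes of these shifts were not tested, and the called share of all genes is given for the main runs only.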

Other observations

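Of the listed symbols outside the 47 genes, 3 had a value in whole embryos, by identifier. *bub1*, a checkpoint kinase, had 47.1 ± 12.6 normalised counts in mutant and 80.3 ± 17.1 in wildtype pools (log2 fold change -0.76, limma adjusted p = 0.00143). *bub1bb*, which encodes a BubR1 checkpoint protein, had 82.1 ± 13.2 in mutant and 141 ± 20.1 in wildtype pools (-0.78, adjusted p = 9.21e-06). The gene named *CCNB2* in the reference, a B-type cyclin, had 36.7 ± 9.12 in mutant and 67.1 ± 10.4 in wildtype pools (-0.88, adjusted p = 9.12e-05).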
